A study of Homo sapiens with 8 samples.

Results

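Ribosome biogenesis genes encode the nucleolar machinery that transcribes ribosomal RNA, modifies and cuts it, and assembles it into the small and large ribosomal subunits. In human T-cell leukaemia cells treated with dexamethasone, 40 such genes were followed out of 19775 genes represented on the arrays. The members came from a list of 46 gene symbols chosen for their function, with earlier results of these data known. Each was represented by the probe set that carried that symbol alone and had the highest mean over all arrays. Of the remaining 6, NOP56, DKC1, BOP1 and PPAN appear in the platform annotation on probe sets shared with other symbols, and DDX18 and GNL3 are not listed there. These 6 were not analysed here.

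CCRF-CEM-C7-14 is an established line of T-cell acute lymphoblastic leukaemia that responds to glucocorticoids, steroid hormones used against this disease. Before hormone was added, every culture had its medium replaced by one whose serum had been stripped of steroids with charcoal. Cells were harvested untreated (0 h) or after 2 h or 10 h in 1 µM dexamethasone, a synthetic glucocorticoid. Total RNA was measured on 8 single-colour arrays, 3 at 0 h, 3 at 2 h and 2 at 10 h, as log2 expression. The labels call the arrays of a time biological replicates without saying what was separate between them, and p-values reflect that spread, which may in part be technical. Vehicle controls matched in time were not analysed here, so the hormone and the hours in stripped medium cannot be told apart. The line is a single clone.

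The treatment was visible in TSC22D3 (GILZ), a direct glucocorticoid receptor target that had a log2 fold change of 4.30 ± 0.22 (SE) at 10 h (limma, adjusted p = 7.22e-09). Of the T-lineage genes, 14 of 15 measured markers had means above 4.73, the highest value of 27 bacterial negative control probe sets, and CD2 lay at 4.72. Summed over the 15 markers, log2 values were 136.9 to 141.5 at 0 h, 136.9 to 141.5 at 2 h and 139.4 to 140.4 at 10 h. Markers of other cells above 4.73 numbered 3 of 5 for B cells, 2 of 5 for myeloid cells, 1 of 2 for erythroid cells and 6 of 8 for epithelial and stromal cells, led by CD79A at 8.78, EPCAM at 8.56, PECAM1 at 7.75, COL1A1 at 7.07 and CD79B at 6.28. Those not above it, MS4A1, BLNK, LYZ, MPO, CSF1R, ALAS2, KRT18 and KRT19, lay between 2.29 and 4.35. Their part in the results was not tested. Summed values of these lists at 0 h and 10 h were 25.6 to 27.5 and 26.7 to 27.0 for B cells, 20.2 to 21.4 and 20.2 to 20.9 for myeloid cells, 9.8 to 10.9 and 10.0 to 10.1 for erythroid cells, and 48.2 to 48.6 and 48.3 to 48.5 for the epithelial and stromal list. Array medians ran from 4.68 to 5.01. The 3 arrays of lowest median were 0 h replicate 2, 2 h replicate 3 and 10 h replicate 1, so each time had 1 of them. Comparisons are therefore also given within these 3 arrays and within the other 5.

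Ribosome production starts when RNA polymerase I transcribes a long precursor RNA in the nucleolus. Small nucleolar ribonucleoproteins then guide its modification: box C/D particles methylate riboses and box H/ACA particles convert uridine to pseudouridine. Large processing complexes cut the precursor while the subunits form. Many of the genes involved are known targets of MYC, which pairs with MAX and binds the E-box, CACGTG.

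The promoters of the members were first examined for this motif. The choice of members by symbol did not use sequence, but it followed function, and many such genes are known MYC targets. RefSeq promoter windows of 300 bases, 250 before and 50 after a gene's start (GRCh38.p14), were matched to 33 of the 40 members by symbol. CACGTG, which reads the same on both strands, was present in a window of 15 of these 33 members (45.5%). Over all 27305 genes with a window the share was 8.77%, and over the 10497 of them above the negative controls on these arrays it was 12.5%. Counted by window, because a gene can have several starts, the shares were 37.5% of 40 member windows and 7.26% of 35116. These shares are descriptions, and a match is not evidence of binding.

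The motif lay close to the start. Of 17 E-boxes in member windows, 9 began within the first 50 transcribed bases and 8 upstream. A bin from the start to 50 bases into the gene held an E-box in 27.3% of members and 1.12% of all genes, and the last 50 bases before the start held one in 15.2% and 2.52%. When only the upstream bases were searched, 6 of the 33 members (18.2%) held the motif. The share was 7.73% of all genes and 11.1% of those above the negative controls, over which the bins were not counted.

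**Figure D1:**
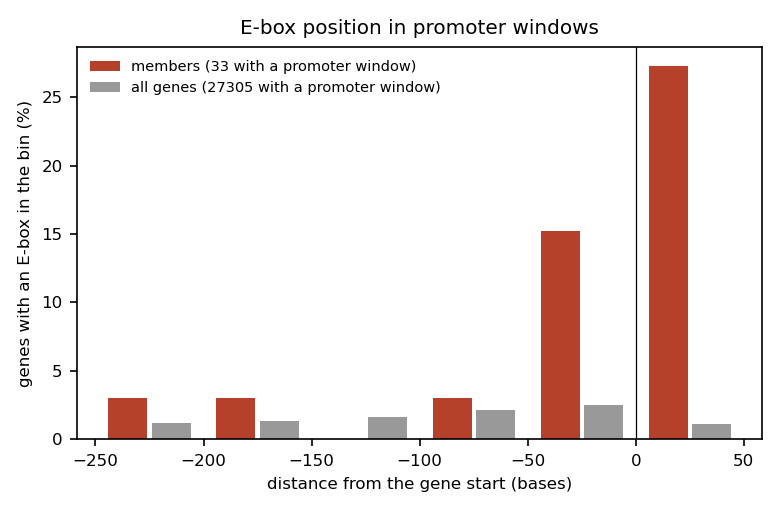
The horizontal axis is the distance of the first base of CACGTG from the gene start in bins of 50 bases, and the vertical axis is the percent of genes with the motif in that bin, for 33 members (red) and 27305 genes (grey). The tallest member bar, 27.3%, lies just after the start, where the share of all genes is 1.12%.

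Upstream sequences of 3 members show where the motif stands, with CACGTG in capitals. LYAR, the nucleolar growth regulator with the lowest 10 h value of the 40, has it at position -64 (chr4:4290022-4290271, minus strand). DDX21, a nucleolar RNA helicase, has it at -31 (chr10:68956397-68956646, plus strand). NOP10, a box H/ACA protein whose 10 h difference was above 0, has it at -170 and -11 (chr15:34343137-34343386, minus strand). Each is the run of 250 bases that ends just before the start.
LYAR: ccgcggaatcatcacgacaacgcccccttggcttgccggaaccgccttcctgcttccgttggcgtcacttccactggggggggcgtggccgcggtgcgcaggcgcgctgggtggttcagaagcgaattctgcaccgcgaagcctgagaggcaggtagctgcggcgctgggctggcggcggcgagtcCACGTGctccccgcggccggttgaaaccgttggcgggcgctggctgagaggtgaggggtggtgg
DDX21: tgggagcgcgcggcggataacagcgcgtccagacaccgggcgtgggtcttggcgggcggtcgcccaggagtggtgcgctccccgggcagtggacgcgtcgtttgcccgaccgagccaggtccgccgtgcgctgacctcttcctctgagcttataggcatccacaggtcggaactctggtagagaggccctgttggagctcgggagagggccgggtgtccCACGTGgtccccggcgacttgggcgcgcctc
NOP10: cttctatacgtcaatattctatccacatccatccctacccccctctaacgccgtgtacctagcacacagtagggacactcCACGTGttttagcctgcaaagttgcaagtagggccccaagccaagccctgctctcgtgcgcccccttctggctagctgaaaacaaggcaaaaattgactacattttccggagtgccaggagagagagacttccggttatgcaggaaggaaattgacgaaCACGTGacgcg

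The downstream E-boxes are shown as 30 bases around the motif for 6 members from 4 roles. The motif began at position 29 in BYSL (chr6:41921515-41921544, plus strand), 7 in FBL (chr19:39846356-39846385, minus strand) and 32 in GAR1 (chr4:109815781-109815810, plus strand). It began at position 15 in MRTO4 (chr1:19251807-19251836, plus strand), 16 in NOP14 (chr4:2963374-2963403, minus strand) and 14 in PES1 (chr22:30591880-30591909, minus strand). Positions count from 1 at the gene start.
BYSL: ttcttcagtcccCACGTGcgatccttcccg
FBL: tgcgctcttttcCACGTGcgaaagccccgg
GAR1: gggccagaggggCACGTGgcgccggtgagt
MRTO4: cgtcttccgccgCACGTGgattcagcgcga
NOP14: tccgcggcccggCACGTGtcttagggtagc
PES1: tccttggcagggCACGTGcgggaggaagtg

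The palindromic glucocorticoid response element, AGAACA and TGTTCT around any 3 bases, was in none of the 40 member windows and in 1 of all 35116, so these letters in this window separate nothing. Members with an E-box had a median log2 fold change of −0.19 at 10 h (n = 15, 13 below 0), and members with a window and no E-box −0.17 (n = 18, 16 below 0).

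After 2 h of hormone none of the 40 members was called in limma (adjusted p below 0.05 by Benjamini-Hochberg over all genes), where 0.0202% of all genes were called. None had an unadjusted p below 0.05 either. Values were above 0 for 35 of the 40, against 55.7% of all genes. It ran from −0.23 to 0.34 with a median of 0.08, beside a median of 0.02 over all genes. Within the 3 arrays of lowest median, 27 of the 40 were below 0, against 8985 of all 19775 genes, and the median was −0.06. Within the other 5 arrays, 5 were below 0, against 9757 of all genes, and the median was 0.12. After quantile normalization 18 were below 0 with a median of 0.01, and with array weights 19 were below 0 with a median of 0.00, so the count above 0 depended on how arrays were handled.

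NCL, the abundant nucleolar protein nucleolin, was the single member whose arrays at 2 h all lay above those at 0 h, an arrangement seen in 2.94% of all genes. Its log2 expression was 12.13, 11.96 and 12.13 at 0 h, 12.35, 12.20 and 12.21 at 2 h, and 11.98 and 11.90 at 10 h. The 2 h values were highest and the 10 h values overlapped with 0 h. At 2 h this gave 0.18 on the log2 scale with a 95% interval of −0.17 to 0.53. With probe sets without a name suffix preferred, which takes its other probe set (mean 4.60, not above the negative controls), the value was −0.20, and with both averaged −0.01.

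After 10 h none of the 40 members was called, where 0.354% of all genes were. The smallest adjusted p among them was 0.48, for LYAR. At an unadjusted p below 0.05, 4 members were lower and none was higher, against 1.29% of all genes lower and 426 of 19775 higher. The moderated F test over the 3 times, which called 0.283% of all genes, called none (smallest adjusted p = 0.541). DNA microarray intervals were wide beside these values: the median half-width of the 95% interval at 10 h was 0.45 on the log2 scale.

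Most members nevertheless had values below 0 at 10 h: the log2 fold change was negative for 35 of 40 members, against 55.4% of all genes. The list of members was chosen with earlier results of these data known, so this share is a description. The median was −0.20, the interquartile range −0.36 to −0.08, and the full range −0.74 to 0.15. Over all genes the median was −0.02, and over the 13068 genes above the negative controls it was −0.01. For 10 members both 10 h arrays lay below all 3 untreated arrays (POLR1B, TCOF1, UTP4, WDR12, NOP2, NOP16, RRP1B, NPM1, DDX21 and LYAR), and 6.51% of all genes showed that arrangement. None lay entirely above, an arrangement seen in 1298 of 19775 genes.

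One array carried much of this. 10 h replicate 1 held the lowest of the 8 values for 24 of the 40 members, and 10 h replicate 2 for 4. Relative to each gene's untreated mean, the median over members was −0.36 on 10 h replicate 1 and −0.08 on 10 h replicate 2, where the medians over all genes were −0.09 and 0.05. Without 10 h replicate 1 the median log2 fold change of the members was −0.08, with 22 of 40 below 0, and without 10 h replicate 2 it was −0.36, with 34 below 0. It was −0.13 without 0 h replicate 1. Within the 3 arrays of lowest median 34 members were below 0 (median −0.29), against 7859 of all 19775 genes. Within the other 5 arrays 26 members were (median −0.08), against 10752 of all genes. Both held for 23 members, against 22.3% of all genes. At 10 h, replicate 1 was the only array of lowest median and replicate 2 the only other array. A low median and the replicate therefore cannot be told apart at 10 h. The part of the low array medians in these differences was not tested.

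**Figure D2:**
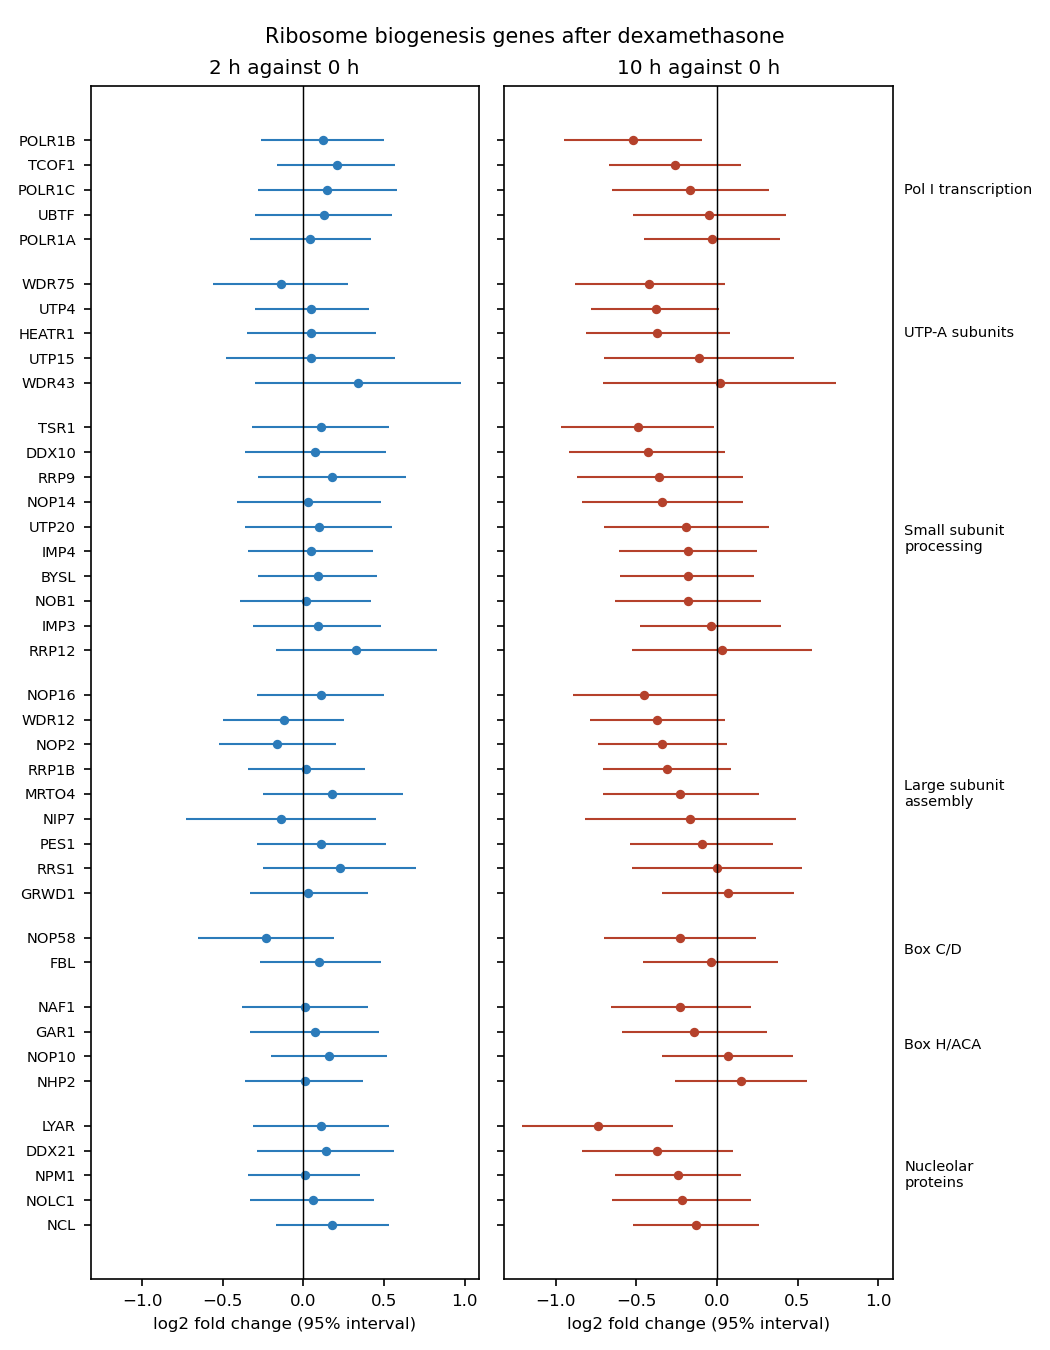
The horizontal axes are log2 fold changes with 95% intervals from limma for the 40 members in rows, grouped by role, at 2 h (left, blue) and 10 h (right, red) against 0 h. Points at 10 h lie mostly left of 0, and 4 intervals (LYAR, POLR1B, TSR1 and NOP16) do not reach above it.

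Among genes of RNA polymerase I transcription, all 5 had 10 h values below 0, from −0.52 to −0.03, against 55.4% of all genes below 0. This role's median was −0.22 in the arrays of lowest median and −0.10 in the others. POLR1B, the second largest subunit of the polymerase, had log2 expression of 8.82, 8.60 and 8.52 at 0 h, 9.03, 8.70 and 8.57 at 2 h, and 8.02 and 8.23 at 10 h. Both 10 h arrays lay below the other 6. The log2 fold change at 10 h was −0.52 ± 0.20 (SE; unadjusted p = 0.0209, adjusted p = 1.00), or 0.698 times the untreated level, with −0.58 in the arrays of lowest median and −0.43 in the others. All 4 of its probe sets were below 0, from −0.52 to −0.16.

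TCOF1 encodes treacle, a nucleolar phosphoprotein needed for ribosomal RNA transcription. Its values were 7.69, 7.75 and 8.0 at 0 h, 7.85, 8.12 and 8.09 at 2 h, and 7.53 and 7.58 at 10 h. The 10 h arrays were again the lowest, at a log2 fold change of −0.26 ± 0.19 (SE) against 0 h and −0.47 ± 0.19 (SE) against 2 h, neither called. Its other probe sets, both above the negative controls, had −0.03 and −0.01 against 0 h, and the average of all 3 gave −0.10. The largest polymerase subunit, POLR1A, had −0.03 on its chosen probe set and between −0.04 and −0.01 over 3. POLR1C, a subunit shared by polymerases I and III, had −0.17. UBTF, the factor that binds the ribosomal RNA gene promoter, was at 8.54, 7.97 and 8.22, then 8.53, 8.47 and 8.12, then 7.97 and 8.42. The times overlapped, the log2 fold change at 10 h was −0.05, and its 5 probe sets ran from −0.12 to 0.41.

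The UTP-A subunits join the nascent precursor RNA and are linked to its transcription. Of these, 4 of 5 were below 0 at 10 h, against 55.4% of all genes, with a median of −0.37. This role's median was −0.37 in the arrays of lowest median and −0.25 in the others. UTP4 was at 10.36, 10.18 and 10.11 at 0 h, 10.21, 10.35 and 10.26 at 2 h, and 9.91 and 9.75 at 10 h. Both 10 h arrays were below the other 6, and here the lower one was 10 h replicate 2, unlike for most members. Its difference at 10 h was −0.38 ± 0.19 on the log2 scale (SE; adjusted p = 1.00), and −0.49 to −0.30 over 19 alternative settings.

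HEATR1 was at 9.58, 9.18 and 9.44 at 0 h, 9.60, 9.50 and 9.24 at 2 h, and 8.80 and 9.26 at 10 h. WDR75 was at 8.69, 8.22 and 8.60, then 8.50, 8.42 and 8.17, then 7.81 and 8.37. In both genes 10 h replicate 1 was the lowest array and 10 h replicate 2 lay within the range of the untreated arrays, for log2 fold changes of −0.37 and −0.42. The HEATR1 value depended on the probe set, since its others above the negative controls had −0.17 and −0.08, and WDR75 had 1 probe set. UTP15 had −0.11. WDR43 had 0.02 with an interval of −0.71 to 0.74, since 0 h replicate 3 stood at 7.18 while its other 7 arrays lay between 8.16 and 8.93.

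**Figure D3:**
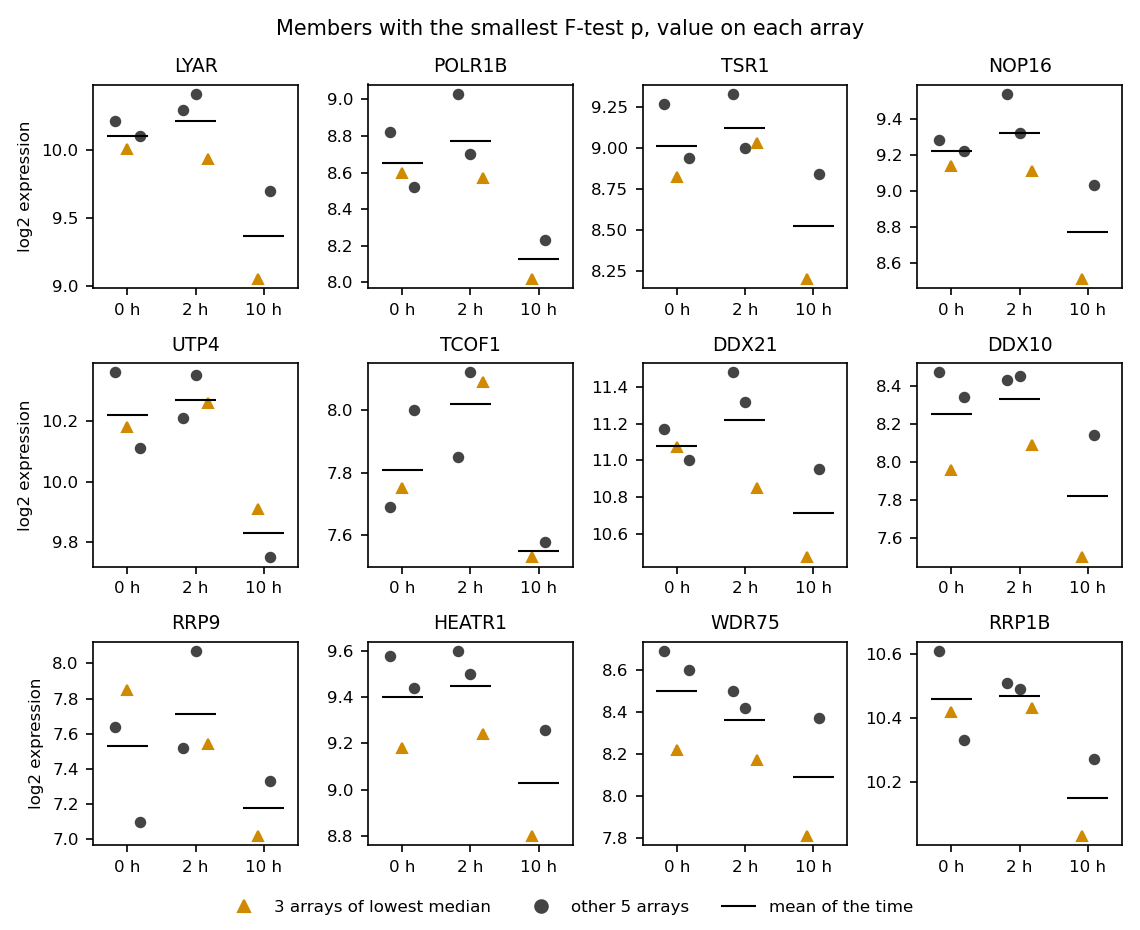
Each panel is 1 of the 12 members with the smallest F-test p; the vertical axis is log2 expression, the horizontal axis is time, each symbol is an array (triangles for the 3 arrays of lowest median, circles for the others) and bars are means. For LYAR, POLR1B, NOP16, UTP4, TCOF1, DDX21 and RRP1B both 10 h arrays lie below all untreated arrays.

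Small subunit processing involves the U3 particle, which is needed for cuts in the precursor, and factors that carry the pre-40S particle to the cytoplasm. At 10 h, 9 of these 10 genes were below 0, against 55.4% of all genes, with a median of −0.19. This role's median was −0.41 in the arrays of lowest median and −0.02 in the others. TSR1, a late 40S assembly factor, was at 9.27, 8.82 and 8.94 at 0 h, 9.33, 9.0 and 9.03 at 2 h, and 8.20 and 8.84 at 10 h. Only 10 h replicate 1 was below all untreated arrays. This gave a log2 fold change of −0.49 ± 0.23 (SE; unadjusted p = 0.043, adjusted p = 1.00), and its 4 probe sets ran from −0.49 to −0.09.

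DDX10, an RNA helicase, was at 8.47, 7.96 and 8.34 at 0 h, 8.43, 8.45 and 8.09 at 2 h, and 7.50 and 8.14 at 10 h, for −0.43 ± 0.23 (SE). RRP9, a U3 particle protein, was at 7.64, 7.85 and 7.10, then 7.52, 8.07 and 7.54, then 7.02 and 7.33. Its 10 h arrays overlapped with 0 h but not with 2 h, and the log2 fold change was −0.36 at 10 h. It was −0.83 in the arrays of lowest median and −0.04 in the others. NOP14 had −0.34, UTP20 −0.19, and IMP4, BYSL and NOB1, the endonuclease that makes the 3′ end of 18S ribosomal RNA, had −0.18 each. IMP3, another U3 protein, had −0.04 and RRP12, an export factor, 0.03.

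Large subunit assembly genes were below 0 at 10 h in 8 of 9 cases, against 55.4% of all genes, with a median of −0.23. This role's median was −0.29 in the arrays of lowest median and −0.08 in the others. NOP16 was at 9.28, 9.14 and 9.22 at 0 h, 9.54, 9.32 and 9.11 at 2 h, and 8.51 and 9.03 at 10 h. Both 10 h arrays were below the other 6, at a log2 fold change of −0.45 ± 0.21 (SE; unadjusted p = 0.0479, adjusted p = 1.00). Of its 4 probe sets, those with means of 9.14 and 7.98 gave −0.45 and −0.46. The others, at means of 4.90 and 4.06 near the negative controls, gave −0.02 and 0.54.

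RRP1B, a nucleolar protein with a role in ribosomal RNA processing, was at 10.61, 10.42 and 10.33 at 0 h, 10.51, 10.49 and 10.43 at 2 h, and 10.03 and 10.27 at 10 h. The 10 h arrays were the lowest, for −0.31 ± 0.19 (SE), while its other probe set had 0.05. PES1 and WDR12 act together with BOP1 in the PeBoW complex, which is needed to process the RNA of the large subunit. PES1 was at 9.47, 9.27 and 9.0, then 9.45, 9.52 and 9.11, then 9.03 and 9.28. Its times overlapped and it had −0.09 ± 0.21 (SE). WDR12 had −0.37, with its 3 probe sets between −0.88 and −0.37. The ribosomal RNA methyltransferase NOP2 had −0.34, MRTO4 −0.23 and RRS1 −0.00. GRWD1, a chaperone of a large subunit protein, had 0.07. NIP7 had −0.17 with an interval of −0.82 to 0.49, and its untreated arrays alone spanned 7.62 to 9.06.

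Of the role medians at 10 h, those of the small nucleolar ribonucleoprotein genes lay nearest to 0. They were −0.13 for box C/D (n = 2) and −0.04 for box H/ACA (n = 4). Within the arrays of lowest median they were −0.39 and 0.06, and within the others 0.01 and 0.05. This order did not hold within either set of arrays. Within the others, small subunit processing was at −0.02, nearer to 0 than box H/ACA. Within the arrays of lowest median, large subunit assembly was at −0.29, nearer to 0 than box C/D. In the box C/D particle, FBL, the methyltransferase fibrillarin, was at 11.79, 11.95 and 11.46 at 0 h, 11.89, 11.78 and 11.84 at 2 h, and 11.62 and 11.77 at 10 h. The times overlapped between 0 h and 10 h and the log2 fold change was −0.04 with an interval of −0.46 to 0.38. NOP58, a core protein, had −0.23 at both 2 h and 10 h. In the box H/ACA particle NHP2 had 0.15, NOP10 0.07, GAR1 −0.14, and NAF1, an assembly factor of the particle, −0.23. Whether these genes differ from the other roles was not tested.

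The 5 abundant nucleolar proteins were all below 0 at 10 h, from −0.74 to −0.13, against 55.4% of all genes below 0. This role's median was −0.28 in the arrays of lowest median and −0.23 in the others. LYAR, which contributes to ribosomal RNA transcription and processing, had the lowest value of the 40 members. Its log2 expression was 10.22, 10.01 and 10.11 at 0 h, 10.30, 10.42 and 9.94 at 2 h, and 9.05 and 9.70 at 10 h. Both 10 h arrays lay below the other 6, and their SD was 0.46 (n = 2), beside 0.11 (n = 3) at 0 h. Its log2 fold change was −0.74 ± 0.22 (SE; 0.599 times the untreated level, unadjusted p = 0.00423, adjusted p = 0.48). It was −0.96 in the arrays of lowest median and −0.47 in the others, and its other probe set had −0.91 (adjusted p = 0.125 over all probe sets with a single symbol).

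DDX21, which takes part in ribosomal RNA transcription and processing, was at 11.17, 11.07 and 11.00 at 0 h, 11.48, 11.32 and 10.85 at 2 h, and 10.47 and 10.95 at 10 h. Both 10 h arrays were below the untreated ones, while 2 h replicate 3 lay below 10 h replicate 2, and the log2 fold change was −0.37 on both of its probe sets. NPM1, the nucleolar chaperone nucleophosmin, was at 13.21, 13.14 and 12.98 at 0 h, 13.15, 13.11 and 13.10 at 2 h, and 12.90 and 12.85 at 10 h. The 10 h arrays were the lowest, with an SD of 0.03 (n = 2), for −0.24 ± 0.18 (SE). NPM1 has many processed pseudogenes, and its 2 other probe sets had −0.03 and 0.02. NOLC1, a chaperone of small nucleolar particles, had −0.22, with −0.41 and −0.26 on its other probe sets, and NCL had −0.13.

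Probe sets of the same gene gave a further view. The 40 members had 82 probe sets, 73 of them above the negative controls on average, and 61 of those 73 were below 0 at 10 h. Of 19 members with more than 1 such probe set, all were below 0 for 15, signs were mixed for NPM1, RRP1B and UBTF, and none was below 0 for RRP12. No member probe set was called at 10 h. The same shares over all 41091 probe sets with a single symbol were not counted, so these counts have no background beside them.

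**Figure D4:**
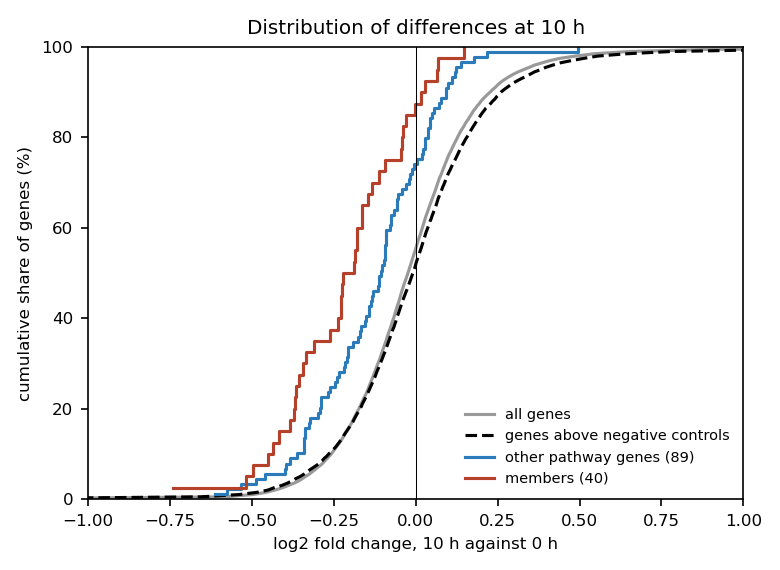
The horizontal axis is the log2 fold change at 10 h against 0 h, shown from −1 to 1, and the vertical axis is the cumulative percent of genes, for 40 members (red), 89 other ribosome biogenesis genes (blue), all genes (grey) and genes above the negative controls (dashed). The members' curve lies to the left, with a median of −0.20 against −0.10, −0.02 and −0.01.

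A longer list of the same pathway, 92 further assembly factors and polymerase I genes from general knowledge of which 89 were measured, was read the same way. None was called at 2 h or 10 h, where 0.0202% and 0.354% of all genes were. At 10 h 66 of 89 were below 0, against 55.4% of all genes, with a median of −0.10. At an unadjusted p below 0.05 in limma, 4 were lower and none higher at 10 h. Of all genes 1.29% were lower and 426 of 19775 higher. The 4 were MAK16 (−0.61), BRIX1 (−0.58), POLR1G (−0.53) and MDN1 (−0.46), and FCF1 had the highest value, 0.49. Within the arrays of lowest median 76 of the 89 were below 0 (median −0.17), against 7859 of all 19775 genes. Within the other 5 arrays 45 were (median −0.00), against 10752 of all genes. Its promoter windows held the E-box in 23 of 76 genes (30.3%), against 8.77% of all genes with a window. Over those above the negative controls the share was 12.5%.

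Between 2 h and 10 h none of the 40 members was called, where 0.167% of all genes were, and the smallest adjusted p was 0.34, for LYAR at −0.85 ± 0.22 (SE). LYAR passed with trended robust variances (adjusted p = 0.037) and with array weights (adjusted p = 0.0415), and over all 19 alternative settings its adjusted p ran from 0.037 to 1.00. At an unadjusted p below 0.05, 9 members were lower and none higher, against 1.77% of all genes lower and 272 of 19775 higher. The 9 were LYAR, POLR1B, TSR1, NOP16, TCOF1, UTP4, DDX21, DDX10 and RRP9. The value was below 0 for 37 of 40 members, against 57.5% of all genes, with a median of −0.27 beside −0.03 over all genes.

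For 13 members both 10 h arrays lay below all 3 arrays at 2 h, against 9.29% of all genes. NHP2 alone showed the opposite, against 1073 of 19775 genes. Within the arrays of lowest median 35 members were below 0 (median −0.24), against 8783 of all 19775 genes. Within the other 5 arrays 37 members were (median −0.22), against 11020 of all genes. Without 10 h replicate 1 the median was −0.13 with 30 of 40 below 0, and without 10 h replicate 2 it was −0.44 with 36. The comparisons of 10 h with 0 h and with 2 h share the 10 h arrays and are not independent of each other.

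**Figure D5:**
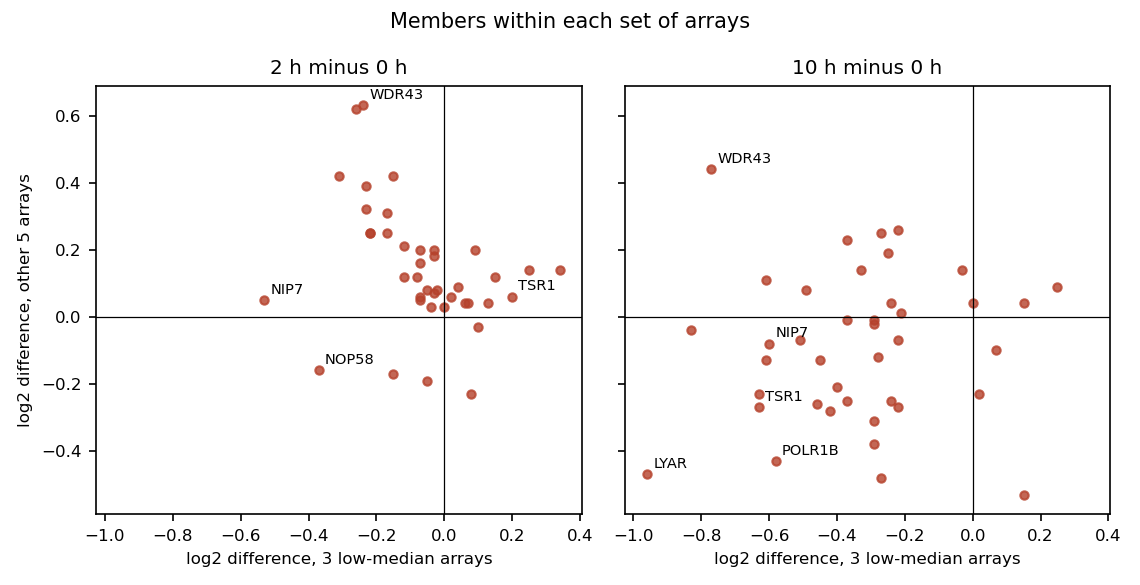
Each point is 1 of the 40 members; the horizontal axis is its log2 difference within the 3 arrays of lowest median (1 array per time), the vertical axis that within the other 5 arrays, at 2 h (left) and 10 h (right) minus 0 h. At 10 h 23 members lie below 0 on both axes, and at 2 h 3 do.

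MYC, the E-box factor named above and no member of the group, was at 11.41, 11.18 and 11.16 at 0 h, 11.28, 11.22 and 10.90 at 2 h, and 10.14 and 10.35 at 10 h. Its 10 h arrays lay well below the other 6. The log2 fold change at 10 h against 0 h was −1.01 ± 0.20 (SE; limma, adjusted p = 0.03), with −1.04 in the arrays of lowest median and −0.94 in the others. Against 2 h it was −0.89 ± 0.20 (SE; limma, adjusted p = 0.152), not called. The moderated F test over the 3 times did not call MYC either (adjusted p = 0.0708). No member had a log2 fold change at 10 h against 0 h as low as that of MYC. Whether MYC and the members are linked in these cells was not tested.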

How the data were processed

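The authors deposited log2 expression for 54675 probe sets on 8 arrays. RMA, which corrects background, quantile-normalizes and summarises probes, is named in the submitters' processing notes, its version not given in the sources used here. The deposited arrays nevertheless had medians from 4.68 to 5.01, so their values did not share 1 distribution. How the 8 arrays were normalized together was not tested. Probe sets were named from the supplied platform annotation: 41091 had 1 symbol, 1801 several, 11721 none and 62 were controls. Each gene took its brightest probe set with a single symbol, which gave 19775 genes. Treated arrays enter that choice. No dim gene was removed in the main fit, and all 40 members passed the negative control level of 4.73. Levels are not compared between genes.

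All 8 arrays were fitted together in limma 3.58.1 (R 4.3.3; lmFit and eBayes, 1 mean for each time, 5 residual degrees of freedom), with Benjamini-Hochberg adjustment over all genes. Tests are two-sided; the fit was tested on simulated data. Members, lists and alternatives were chosen with earlier results of these data known. Values in every array are given for the 12 members with the smallest F-test p and a fixed panel of 10, of which NOP56, DKC1 and BOP1 were not measured; the other members, called genes and MYC and TSC22D3 are named by the same rule. MAK16, BRIX1, POLR1G, MDN1 and FCF1 were named after their values were seen. Promoters came from the RefSeq table of GRCh38.p14. The number of arrays limits the precision.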

Additional observations from a re-analysis of the deposited data

How the results depend on the processing

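Over 19 alternative settings no member was called at 2 h or 10 h against 0 h. For 10 h against 2 h, 1 member, LYAR, was called with trended robust variances and 1, again LYAR, with array weights, and 0 with the other 17 settings. The median member log2 fold change kept its sign at 10 h against 0 h (−0.36 to −0.08) and was 0.00 to 0.17 at 2 h. At 10 h against 2 h it ran from −0.44 to −0.13, both ends from leaving out 1 array of 10 h. Deviations from the time means of samples that share a replicate number had r from −0.27 to 0.26 over 7 pairs, 1 above 0.1. The deviations of the 2 arrays at 10 h mirror each other by construction, so these values cannot exclude pairing. The numbers were not taken as pairs in the main fit. With a replicate block 0 members were called and the medians were 0.08, −0.27 and −0.33 for 2 h and 10 h against 0 h and 10 h against 2 h. The number of all genes called at 10 h against 0 h ran from 30 without the 3 arrays of lowest median to 127 with array weights. With upstream bases alone 6 members held an E-box in place of 15, by construction a shorter window. Arrays in groups of 2 or 3 left unadjusted 95% intervals with a median half-width of 0.45 at 10 h, and a call over all genes needed more than that: LYAR at −0.74 had an adjusted p of 0.48.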
